A study of Danio rerio with 4 samples.

Results

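The genes described are 7 genes of the zebrafish red blood cell, the globin genes hbae3, hbbe1.1, hbbe2 and hbbe3 and the erythrocyte genes alas2, slc4a1a and cahz, chosen by name from the 42298 genes of the expression tables. Libraries came from mCherry-positive cells sorted by flow cytometry from dissociated zebrafish larvae at 5 days post fertilization (dpf). There were 2 libraries from alms1-/- mutant larvae and 2 from wild-type larvae, and both groups carried Tg(ins:mCherry), a reporter in which the preproinsulin promoter drives a red fluorescent protein in β-cells. The cells are labelled as enriched for β-cells, larvae were pooled for the sort, and no unsorted larvae or sorted red cells were analysed here. Whether the 2 libraries of a group come from separate clutches or sorts is given neither by the labels nor by the methods, and p-values therefore reflect only how much these libraries spread, possibly for technical reasons.

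Hemoglobin is a tetramer of α and β globin chains, each of which holds a heme group that binds oxygen. Zebrafish, like other vertebrates, use embryonic α and β globin genes in their first red cells and replace them later with adult ones. Both sets lie in clusters in which α and β genes stand side by side. Fish red cells keep their nucleus and circulate through every larval organ, and they are filled with globin mRNA.

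The members fall into 3 roles. hbae3 encodes an embryonic α chain, and hbbe1.1, hbbe2 and hbbe3 encode embryonic β chains. alas2 encodes the erythroid 5-aminolevulinate synthase, the first enzyme of heme synthesis. slc4a1a encodes band 3, the anion exchanger that carries chloride and bicarbonate across the red cell membrane, and cahz encodes a carbonic anhydrase of zebrafish red cells. In the coordinates of GRCz10, hbbe1.1 lies at chr3:54859495-54860272 on the plus strand and hbae3 at chr3:54891994-54893165 on the minus strand, in the larger globin cluster. hbbe3 at chr12:20217595-20218669 and hbbe2 at chr12:20227993-20228699, both on the minus strand, belong to the smaller cluster. slc4a1a lies at chr3:19916121-19942220 on the minus strand, alas2 at chr8:21321855-21336943 on the plus strand and cahz at chr2:29493850-29501572 on the minus strand. The files give each of the 7 protein-coding genes 1 exon as long as the whole gene, so that introns are included in its length. Nucleotide and protein sequences were not used here.

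Reads assigned to genes numbered between 42761199 and 50467517 per library. alms1 itself had 443 and 1131 reads in the mutant libraries, against 1149 and 832 in the wild-type libraries, and did not pass the test (log2 fold change -0.81, edgeR adjusted p = 0.104). ins, the insulin gene whose promoter drives the reporter, had 534 and 447 reads in the mutant libraries, against 20 and 61 in wild type. Of 14 β-cell markers, 5 were detected in all 4 libraries (at least 10 reads and at least 1 TPM in each) and none was at 0. Of the same 14, 4 were higher in the mutants and none lower, with a median log2 fold change of 1.03. Over all genes tested, 19.2% were higher and 24.3% lower. Skin markers, 8 of 8 of which were lower in the mutants, summed to 5675 and 5864 CPM (reads scaled to the same library total) in the mutant libraries, against 44723 and 31998 in wild type. Skeletal muscle markers, 4 of 6 of which were higher, summed to 8039 and 5822 CPM in the mutant libraries, against 1845 and 1978 in wild type. The part that the other cells had in the values below was not tested.

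Red cell transcripts were present in all 4 libraries. Of 13 erythrocyte markers, the 7 members among them, 12 were in the files and all 12 were detected in every library. Of these 12, 3 were called higher in the mutants and none lower, where 19.2% of all genes tested were called higher and 24.3% lower. TPM, a level per length of gene that adds up to the same total in each library, was used to compare genes with each other. The β globin hbbe1.1 stood at 158221 and 133962 TPM in the mutant libraries, against 36445 and 40149 TPM in the wild-type libraries. It was the gene with the highest TPM of all genes in both mutant libraries, and it ranked 3 and 2 in wild type. The mutant libraries lay well above the wild-type libraries.

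The α globin hbae3 had 32702 and 26244 TPM in the mutant libraries, against 13528 and 16382 TPM in wild type. hbbe2 had 26562 and 23236 TPM in the mutants, against 6930 and 8563 TPM in wild type. The groups did not overlap for either gene. hbbe3 was far below the other globin members, with 5.08 and 2.07 TPM in the mutants, against 3.35 and 2.46 TPM in wild type. Its groups overlapped.

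Of the genes that are not globins, cahz stood at 727 and 853 TPM in the mutant libraries, against 220 and 159 TPM in wild type. alas2 stood at 126 and 169 TPM in the mutants, against 60.1 and 40.4 TPM in wild type. slc4a1a stood at 59.9 and 93.3 TPM in the mutants, against 26.7 and 16.3 TPM in wild type. In each of the 3 genes both mutant libraries were higher, and the ratio of mean TPM ranged from 2.93 for alas2 to 4.17 for cahz, with 3.56 for slc4a1a.

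The TPM of 6 of the 7 members, all but hbbe3, was thus higher in both mutant libraries than in both wild-type libraries, which was also true of 58.0% of the 28079 genes tested. The order of the levels was hbbe1.1, hbae3, hbbe2, cahz, alas2, slc4a1a and hbbe3 in each of the 4 libraries. Within a group the ranges of neighbours in this order did not overlap, except hbae3 and hbbe2 in the mutants, where the range of hbbe2 reached into that of hbae3. The distance between the globins and the others on this scale includes a difference in gene structure: the lengths used for alas2, slc4a1a and cahz were 15089, 26100 and 7723 bases, against 707 to 1172 bases for the globins.

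**Figure D1:**
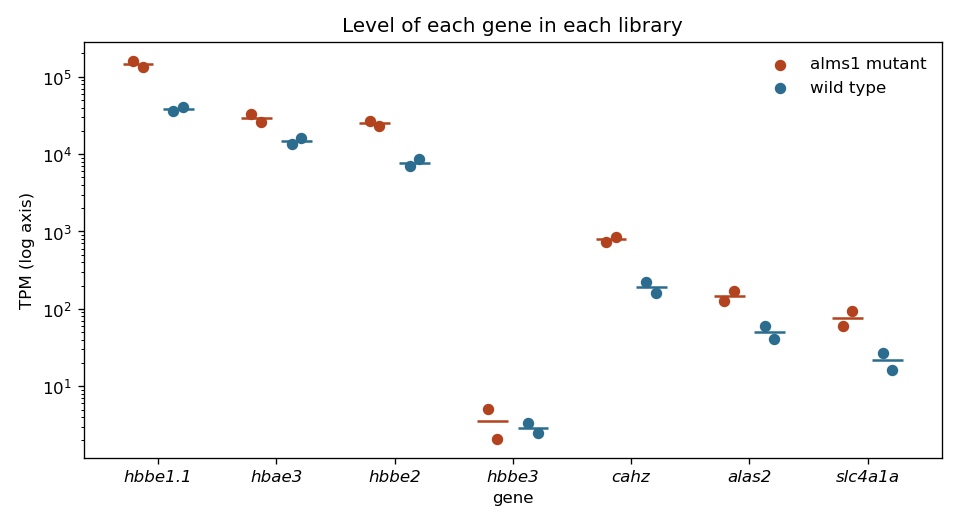
TPM (log axis) of the 7 genes in each library, alms1 mutant left of wild type, with points for libraries and lines for the mean of 2 libraries. The mutant libraries lie above the wild-type libraries for every gene except hbbe3, which stays between 2.07 and 5.08 TPM.

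The share of each library that globin genes took was counted over 16 annotated globin genes, the 4 members and 12 others, 9 of them α and 7 β. MGC173646, a gene between hbbe1.1 and hbae3 that no reference symbol matched, was left out of all globin counts. It had 156684 and 113255 reads in the mutants, against 69723 and 95772 in wild type. The 16 globin genes held 5.05% and 3.21% of the reads in the mutant libraries, against 1.51% and 2.30% in the wild-type libraries. The groups did not overlap, but the distance between mutant replicate 2 and wild-type replicate 2 was smaller than that between the 2 mutant libraries. Exact binomial 95% intervals of these shares reach no further than 0.00657 percentage points from them and cover counting error only. On the TPM scale, where short genes weigh more, the globins made up 37.3% and 30.8% of the total in the mutants, against 10.3% and 12.1% in wild type. Both measures count only reads assigned to genes. The number of mapped reads was derived from the deposited RPKM, a level scaled by that number. Reads in a gene but outside its annotated exon were not counted for it. Of all mapped reads, 30.3% and 31.1% were counted for no gene in the mutant libraries, against 20.5% and 21.3% in wild type. The part of this difference in the shares was not tested.

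In reads, single members differed in whether the groups overlapped. hbbe1.1 had 879159 and 655705 reads in the mutant libraries, against 251832 and 342008 in wild type. hbae3 had 273731 and 193511 reads in the mutants, against 140813 and 210227 in wild type. The hbae3 reads overlapped between the groups and those of hbbe1.1 did not. In bulk libraries such as these, a larger number of red cells and more globin RNA per red cell cannot be told apart.

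Near-identical copies limit some of these values. Every read of hbae3, hbbe2, hbbe3 and cahz was uniquely mapped, and 88.4% of the hbbe1.1 reads were, from 87.8% to 88.6% in single libraries. Among the other abundant globin genes the uniquely mapped share was 58.8% for hbae1, 45.7% for si:ch211-5k11.2, 59.9% for LOC100334599 and 99.6% for si:ch211-5k11.12, so that how reads were divided among the embryonic α copies is uncertain. Counting uniquely mapped reads only, all globins held 4.43% and 2.83% of the reads in the mutants, against 1.30% and 1.98% in wild type.

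The comparison between the genotypes was tested with edgeR's quasi-likelihood F test on the read counts of all 28079 genes that passed the filter on low counts, with TMM scaling and Benjamini-Hochberg adjustment at 0.05. TMM is a scale factor chosen so that most genes do not change. Of the 7 members, 2 were called higher in the mutants and none lower, where 19.2% of all genes tested were called higher and 24.3% lower. cahz rose by 1.09 on the log2 scale (standard error 0.25, edgeR adjusted p = 0.0101) and slc4a1a by 0.85 (standard error 0.22, edgeR adjusted p = 0.0160). Both calls were lost when either mutant library was left out, and fewer of all genes were called in those fits too. Without mutant replicate 1 the adjusted p of cahz was 0.146 and that of slc4a1a 0.106, and without mutant replicate 2 they were 0.0781 and 0.161, while the fold changes stayed between 0.93 and 1.22 for cahz and between 0.78 and 0.96 for slc4a1a over all libraries left out in turn.

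The other 5 members did not pass. alas2 had a log2 fold change of 0.57 (standard error 0.22, edgeR adjusted p = 0.0668), and leaving out either wild-type library brought it past the threshold, at 0.0462 without replicate 1 and 0.0376 without replicate 2. The sum of the alas2, slc4a1a and cahz reads was 0.91 higher on the log2 scale (standard error 0.26, edgeR adjusted p = 0.0210), and this call too was lost without mutant replicate 1 (0.233) or 2 (0.167).

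The globin members had larger errors. hbbe1.1 had a log2 fold change of 0.93 (standard error 0.42, edgeR adjusted p = 0.104) and hbbe2 one of 0.66 (standard error 0.39, edgeR adjusted p = 0.200). hbae3 had a log2 fold change of -0.03 (standard error 0.42, edgeR adjusted p = 0.955). On this scale the hbae3 level was 5547 and 3145 TMM-scaled CPM in the mutants, against 3052 and 5846 in wild type, so that the libraries of a group lay much further apart than the group means. TMM-scaled CPM did not overlap for 4 of the 7 members (hbbe1.1, alas2, slc4a1a and cahz), all higher in the mutants, as it did not for 39.1% of all genes tested in that direction.

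The globin values turned on single libraries. Without wild-type replicate 2 hbbe1.1 had a log2 fold change of 1.39 (edgeR adjusted p = 0.000346) and hbbe2 one of 1.23 (0.00131), and 5 of the 7 members were called higher, against 16.3% of all genes. Without mutant replicate 1 hbbe1.1 stood at 0.50 (edgeR adjusted p = 0.646) and hbbe2 at 0.26 (edgeR adjusted p = 0.770). The summed reads of all globins had a log2 fold change of 0.56 (standard error 0.44, edgeR adjusted p = 0.328) with all libraries, of 1.08 (edgeR adjusted p = 0.00106) without wild-type replicate 2, of 0.11 (0.936) without mutant replicate 1 and of 0.27 (0.435) without wild-type replicate 1. Summed separately, the α globins stood at 0.28 (edgeR adjusted p = 0.619) and the β globins at 0.77 (0.177). The sign of the α sum turned without mutant replicate 1 (-0.19) and without wild-type replicate 1 (-0.02), and without wild-type replicate 2 the α sum stood at 0.84 (edgeR adjusted p = 0.0118) and the β sum at 1.26 (0.000559).

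They also turned on the scaling. When libraries were scaled by their totals alone, with no TMM factor, 5 of the 7 members were called higher (hbbe1.1, hbbe2, alas2, slc4a1a and cahz), against 29.0% of all genes. On log2(TPM + 1), tested with limma-trend, 6 were, against 35.2% of all genes, and none was called lower, against 5.87%. These scalings moved the median of all genes to 0.57 and 0.69 on the log2 scale, from 0.03 with TMM. Relative to the median of all genes in the same fit, hbbe1.1 stood at 0.89 with TMM, 0.91 with library totals and 1.24 on log2(TPM + 1). hbae3 stood at -0.07, -0.04 and 0.29 in the same order. The last value of each gene depended on the constant added to TPM: on log2(TPM + 0.1), hbbe1.1 stood at 0.95 and hbae3 at -0.003. The sign of the hbae3 fold change was negative with TMM and positive with the other scalings (0.53 and 0.98).

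**Figure D2:**
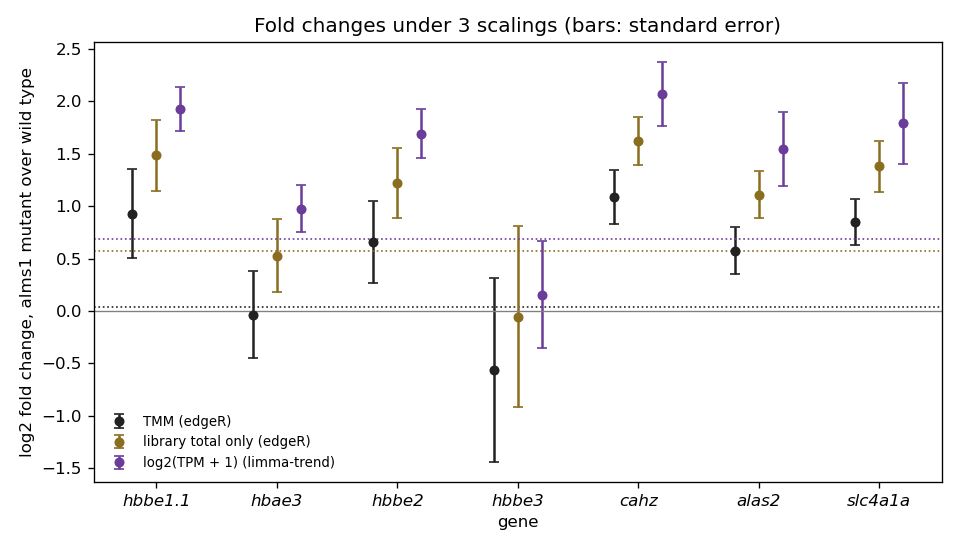
Log2 fold change of each gene, alms1 mutant over wild type, with its standard error, under TMM (black), library totals (ochre) and log2(TPM + 1) (purple), with dotted lines at the median of all genes tested. hbbe1.1, hbbe2, cahz, alas2 and slc4a1a lie above the median line in every scaling. hbae3 lies at or near it with TMM and library totals and at 0.98, against a median of 0.69, on log2(TPM + 1).

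Within the globin reads themselves, proportions do not depend on how libraries are scaled. hbae3 took 127 and 123 of every 1000 globin reads in the mutant libraries, against 185 and 191 in the wild-type libraries. hbbe1.1 took 407 and 418 of every 1000 in the mutants, against 332 and 311 in wild type. The spread within a group was small beside the distance between the groups: hbae3 averaged 125 ± 2.52 in the mutants and 188 ± 3.92 in wild type, and hbbe1.1 averaged 413 ± 7.32 in the mutants and 321 ± 14.8 in wild type (SD, n = 2 each). hbae3 thus took a smaller part and hbbe1.1 a larger part of the globin reads in the mutants than in wild type.

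Set against each other, hbae3 had 31.1 and 29.5 reads per 100 reads of hbbe1.1 in the mutants, against 55.9 and 61.5 in wild type. With uniquely mapped reads the values were 35.2 and 33.3 in the mutants, against 63.7 and 69.6 in wild type. The ratio did not overlap between the groups in either count, and the mutant mean was 0.517 of the wild-type mean with all reads and 0.514 with uniquely mapped reads. The lack of overlap was not particular to this pair: the parts of the globin reads overlapped for none of the abundant globin genes. Parts of a fixed total do not move independently. With 2 libraries a group an exact permutation test cannot reach 0.05, and none was run. In a fit of all genes scaled to the globin reads, a choice made after seeing the data, neither hbae3 (log2 fold change -0.59, edgeR adjusted p = 0.274) nor hbbe1.1 (0.36, edgeR adjusted p = 0.444) passed the threshold, nor did any other member, where 0.831% of all genes were called higher and 12.6% lower.

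The pattern was not one of all α against all β genes. Over the annotated globin genes, without MGC173646, 67.1 and 64.1 α reads stood against 100 β reads in the mutants, and 88.3 and 94.6 in wild type. si:ch211-5k11.2, an α gene that RefSeq lists under hbae1.2 and hbae1.3, and hbae1 took smaller parts of the globin reads in the mutants, with 141 and 137 per 1000 against 162 and 166, and with 58.4 and 57.4 against 65.2 and 68.9. LOC100334599, the α gene hbae1.3 in RefSeq, took a larger part, with 73.5 and 70.9 per 1000 in the mutants, against 54.8 and 58.8 in wild type. Reads of these 3 genes are divided among copies and their parts are uncertain. Of the β genes, si:ch211-5k11.12 (hbbe1.3 in RefSeq) took the smaller part in the mutants, with 129 and 126 per 1000, against 142 and 143 in wild type, and nearly all its reads mapped uniquely. hbbe2 took 62.1 and 65.8 in the mutants, against 57.3 and 60.2 in wild type.

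**Figure D3:**
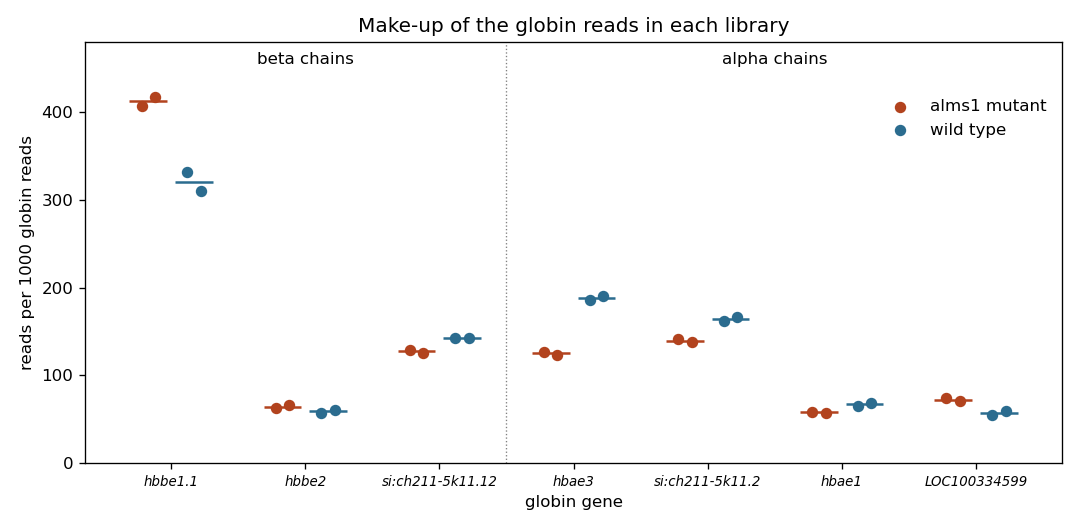
Reads per 1000 globin reads of the 7 abundant globin genes in each library, alms1 mutant left of wild type, with points for libraries and lines for means. hbbe1.1 takes 407 and 418 in the mutants, against 332 and 311 in wild type, and hbae3 takes 127 and 123, against 185 and 191.

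The 3 genes that are not globins did not follow the globin reads within a group. Per 1000 globin reads, cahz had 18.6 and 26.4 reads in the mutant libraries, against 19.9 and 12.2 in wild type. alas2 had 6.28 and 10.2 in the mutants, against 10.6 and 6.07 in wild type. slc4a1a had 5.17 and 9.76 in the mutants, against 8.16 and 4.24 in wild type. All 3 were high together in mutant replicate 2 and wild-type replicate 1 and low together in the other library of each group, and the groups overlapped for each. The same libraries had more reads over long genes: the 10th percentile of reads per kb over 1509 protein-coding genes spanning 80 to 160 kb was 15.0 and 21.9 in the mutants, against 8.07 and 5.23 in wild type. The percentile was also higher in both mutant libraries than in both wild-type libraries. Divided by it, the reads per kb of slc4a1a came to 28.5 and 26.8 in the mutants, against 29.4 and 34.2 in wild type. Those of alas2 came to 59.8 and 48.7, against 66.1 and 84.6, and those of cahz to 346 and 246, against 243 and 332. On this measure slc4a1a and alas2 were lower in the mutants and the cahz groups overlapped. Because the percentile was higher in the mutants, the division lowers every gene there relative to wild type. The measure was not computed over all genes, so it does not place these 3 genes among them. The part of the reads over long genes in the ratios and fold changes was not tested.

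The weakest member, hbbe3, rested on 39 and 14 reads in the mutants, against 32 and 29 in wild type, although it lies 9324 bases from hbbe2, which had 134124 and 103356 reads in the mutants, against 43516 and 66283 in wild type. Divided by the 10th percentile of long genes, its reads per kb came to 2.42 and 0.60 in the mutants, against 3.69 and 5.16 in wild type. Its log2 fold change was -0.56 (standard error 0.88, edgeR adjusted p = 0.622), and a difference between the genotypes was not detectable at this depth. The sign was positive on log2(TPM + 1), at 0.15.

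Of the 12 globin genes that are not members, 3 (25.0%) were called higher and none lower, where 19.2% of all genes were called higher. How many were called changed with the library left out, as it did over all genes. hbz, an embryonic α gene of the smaller cluster, had 588 and 441 reads in the mutants, against 111 and 146 in wild type (log2 fold change 1.56, edgeR adjusted p = 0.0287). It took 0.272 and 0.281 of every 1000 globin reads in the mutants, against 0.146 and 0.133 in wild type, without overlap. zgc:163057, which RefSeq names hbae4, had 2371 and 2160 reads in the mutants, against 991 and 1283 in wild type, and was not called (0.54, edgeR adjusted p = 0.187).

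Adult globin genes were barely represented. The 6 of them together (zgc:92880, si:ch211-5k11.6, ba1l, hbaa1, ba1 and si:xx-by187g17.1) had 237 and 341 reads in the mutants, against 58 and 44 in wild type, while the embryonic globin reads numbered 759509 in the library that had fewest. The calls were of zgc:92880, hbba2 in RefSeq, with 138 and 138 reads in the mutants, against 27 and 1 in wild type (edgeR adjusted p = 0.0467), and of si:xx-by187g17.1, with 26 and 56 reads, against 2 and 3 (edgeR adjusted p = 0.0229). At such counts the fitted fold changes depend on the prior count and are not given. All 6 genes but zgc:92880 had less than 4 times the reads per kb of the 10th percentile of long genes in every library.

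Around the globin members, 25 genes had a span within 50 kb of one, of which 16 were the globin genes and 9 were not. Of the 9, 1 was called higher (lcmt1, 0.79) and 1 lower (kank2, -0.81), where 19.2% of all genes tested were called higher and 24.3% lower. The 4 nearest were the lncRNA genes LOC108182853 and LOC101884456, the aquaporin gene aqp8a.2 and MGC173646, and none of them was called. MGC173646 lies between hbbe1.1 and hbae3 and had 28198 and 23138 TPM in the mutants, against 10090 and 11243 in wild type. No symbol in the reference tables matched it, and it was not counted as a globin gene. nprl3, the gene that flanks the α globin cluster in vertebrates and holds a globin enhancer in zebrafish, had 2167 and 2648 reads in the mutants, against 1192 and 1121 in wild type (log2 fold change 0.61, edgeR adjusted p = 0.0706).

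Other red cell genes were taken from 5 lists. Over their 86 genes tested, 22 (25.6%) were called higher and 18 (20.9%) lower, near the 19.2% and 24.3% of all genes, with a median log2 fold change of 0.12, against 0.03 over all genes. Of 20 genes of the red cell membrane and skeleton tested, 10 (50%) were called higher and 2 (10%) lower, with a median of 0.68. The erythrocyte markers tested in this list, epb41b (log2 fold change 0.43), sptb (0.18) and rhag (-0.57), were not called. Those called higher included gypc (log2 fold change 1.12), rhd (1.08), dmtn (0.88), epb41a (0.86) and ank1b (0.83). tmod1 (1.29), tmod4 (0.95), piezo1 (0.78), kel and slc2a1a were called higher too. kel, the Kell blood group protein, had 2064 and 1995 reads in the mutants, against 682 and 576 in wild type (log2 fold change 1.27, edgeR adjusted p = 0.00664). slc2a1a, a glucose transporter, had 568 and 722 reads in the mutants, against 127 and 83 in wild type (2.20, edgeR adjusted p = 0.00387). The 2 that fell were icn, a calcium-binding protein of the S100 family known from zebrafish skin (log2 fold change -3.49, edgeR adjusted p = 0.000979), and sypl2a, a synaptophysin-like protein (-1.76, edgeR adjusted p = 0.000967).

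Of 17 erythroid transcription genes tested, 4 (23.5%) were called higher and 5 (29.4%) lower, near the shares over all genes, with a median of 0.31. Higher were klf1, the erythroid Krüppel-like factor that activates globin genes in mammals, with 3085 and 3892 reads in the mutants, against 1523 and 914 in wild type (log2 fold change 1.11, edgeR adjusted p = 0.00783), and zfpm1, a cofactor of GATA factors (1.08, edgeR adjusted p = 0.00780). gata1a, the GATA factor that red cell formation requires, had 1845 and 2345 reads in the mutants, against 1119 and 744 in wild type (0.75, edgeR adjusted p = 0.0385). Lower were klf3, a repressor of the Krüppel-like family that is also expressed outside blood (2700 and 3160 reads in the mutants, against 7365 and 9523 in wild type, edgeR adjusted p = 0.00156), and ldb1a, an adaptor of LIM-domain and GATA complexes (log2 fold change -1.49, edgeR adjusted p = 0.00231). The remaining calls were of gfi1aa, higher, and of bcl11aa, myb and gata2a, lower.

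Of 20 genes of heme synthesis and turnover tested, 1 (5%) was called higher and 2 (10%) lower, both below the shares over all genes, with a median of 0.00. The gene called higher was blvrb, biliverdin reductase B, with 11537 and 13248 reads in the mutants, against 5039 and 5055 in wild type (log2 fold change 0.85, edgeR adjusted p = 0.0208). alas1, the form of the enzyme that other tissues use in place of alas2, was lower (-1.38, edgeR adjusted p = 0.00304), as was hmox1a, a heme oxygenase that breaks heme down (-1.04, edgeR adjusted p = 0.0434). abcb10, a mitochondrial transporter, was not called, with a log2 fold change of -0.93 and an adjusted p of 0.0594 in the same edgeR fit.

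Of 13 iron handling genes tested, 4 (30.8%) were called higher and 4 (30.8%) lower, with a median of -0.53. tfa, transferrin, which the liver secretes, was higher by 1.59 (edgeR adjusted p = 0.00138). The other 3 were hp and hpx, which encode plasma proteins that bind hemoglobin and heme, and tfr1a, the transferrin receptor that red cell precursors need in zebrafish. Lower were cybrd1, a ferric reductase (368 and 427 reads in the mutants, against 1283 and 1070 in wild type, edgeR adjusted p = 0.00154), slc40a1, the iron exporter ferroportin (log2 fold change -1.34, edgeR adjusted p = 0.00438), tfr1b, a second transferrin receptor (-2.18, edgeR adjusted p = 0.0116), and aco1. Of 17 red cell enzymes tested, 4 (23.5%) were called higher and 5 (29.4%) lower, again near the shares over all genes, with a median of -0.34. ampd3a, an AMP deaminase, was higher by 1.86 (edgeR adjusted p = 0.00276), while ca2, another carbonic anhydrase (-1.87, edgeR adjusted p = 0.00107), and hk1, a hexokinase (-1.72, edgeR adjusted p = 0.00154), were lower. The remaining calls were of pklr, blvrb and nmt1b, higher, and of nt5c3a, gpx1b and mgst3b, lower. The skin and muscle values given above moved between the same groups, as did macrophage and neutrophil markers, 7 of 8 of which were lower, and their part in these lists was not tested. The number of list genes called higher was 5 without mutant replicate 1, where 10.1% of all genes were called higher, and 6 without mutant replicate 2, where 8.11% were.

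**Figure D4:**
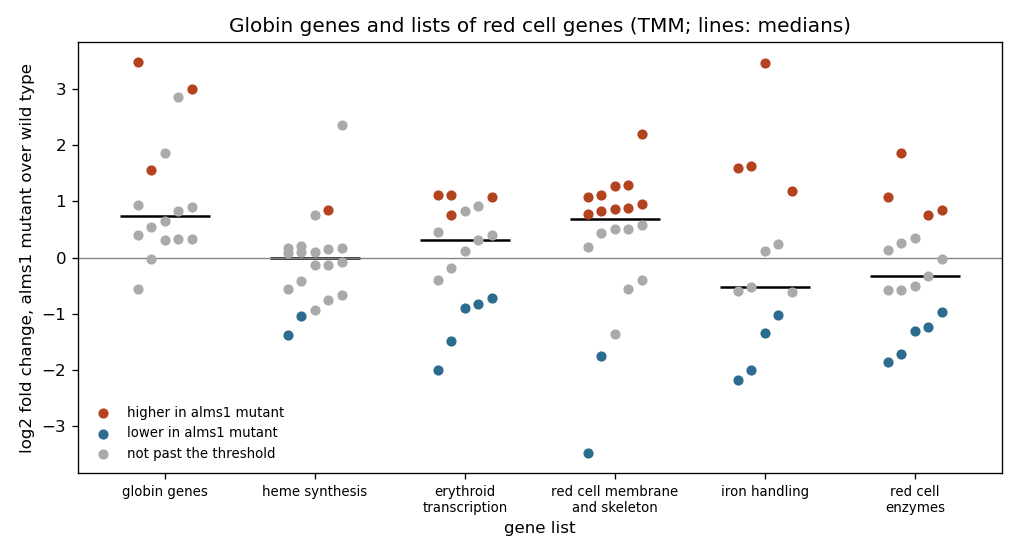
Log2 fold change (TMM), alms1 mutant over wild type, of the 16 globin genes and of the genes of 5 lists, 1 point a gene, with red for genes called higher in the mutants, blue for those called lower, grey for those not called, and a line at each median. The line is at 0.68 for red cell membrane and skeleton genes and at -0.53 for iron handling genes, and each of the 5 lists has genes called in both directions.

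The genes most like the summed globin reads over the 4 libraries were found among 14886 genes, none of them globins, tested with a mean of at least 10 CPM, by the root mean square distance between centred log2(CPM + 1) values. They were myl10, a myosin light chain gene, pimr60, st8sia5, a sialyltransferase gene, cldn15lb, a claudin gene, and si:ch211-157b11.14, at distances of 0.053 to 0.108. Only 1.58% of the pimr60 reads mapped uniquely. alas2, cahz and slc4a1a lay at distances of 0.377, 0.398 and 0.482, which placed them at ranks 947, 1217 and 2754. The likeness is a description over 4 libraries that share depth and scaling.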

How the data were processed

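RNA-seq libraries of mCherry-positive cells from 5 dpf larvae were grouped by their labels into 2 alms1 mutant and 2 wild-type libraries. Per the methods, the authors used CLC Genomics Server v10.0.1 for alignment to the zebrafish genome, which the submitters' processing notes name GRCz10. For annotation and read filtering: not given in the sources used here. Nextera XT libraries do not mark strand, and reads of genes that overlap on opposite strands are mixed. Per gene, the deposited counts give all reads and the uniquely mapped ones. The deposited TPM and the deposited RPKM were computed by the authors' program from reads and exon length, which equals the gene span for 99.4% of the 42298 genes. Where no exon is annotated (15924 genes), whole-gene reads were used.

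Counts were fitted with edgeR 4.0.16 in R 4.3.3 (filterByExpr defaults, TMM, quasi-likelihood F test without robust estimation, Benjamini-Hochberg adjustment at 0.05, no replicate block). Fold changes are mutant over wild type, and a standard error is the log2 fold change divided by the square root of F. The biological coefficient of variation was 0.340. On simulated counts of this design, 200 of 28212 genes were changed. Of these, 54.0% of 4-fold rises, 42.0% of 4-fold falls, 2.00% of 2-fold rises and 2.00% of 2-fold falls were called. No unchanged gene was called. The simulation gave all genes the same coefficient of variation, below 0.340. It also changed far fewer genes than the 5380 called higher and the 6835 called lower here. Its shares therefore do not give the power of the fit to these data. Alternatives were DESeq2 1.42.0, limma 3.58.1 (limma-trend on log2(TPM + 1) and log2(TPM + 0.1)), other scalings, count filters, uniquely mapped reads, whole-gene reads, RPKM and CPM in place of TPM, the replicate number as a block and leaving out each library. Added after seeing the data were a crossed block and scaling to the globin reads.

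Globin genes were taken by name and by RefSeq synonym. The files' chromosome identifiers were numbered by majority, through gene symbols shared with a RefSeq table of GRCz12tu, whose coordinates were not used. The members and lists were chosen with earlier results of these data known. The rule named all members and globin genes, up to 4 genes per list with the smallest adjusted p, gata1a, the 5 genes most like the globin sum and the 4 nearest neighbours. Added after their values were seen were nprl3, lcmt1, kank2, gfi1aa, bcl11aa, myb, gata2a, hp, hpx, tfr1a, aco1, pklr, nmt1b, nt5c3a, gpx1b and mgst3b. So were epb41b, sptb, rhag, gypc, rhd, dmtn, epb41a, ank1b, tmod1, tmod4 and piezo1. Python 3.11.15 ran the tables and plots (matplotlib 3.10.9, numpy 2.4.6, pandas 2.3.3, scipy 1.17.1).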

Additional observations from a re-analysis of the deposited data

How the results depend on the processing

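With 2 libraries a group, the calls of cahz and slc4a1a and most globin values depend on single libraries, and hbbe3 and the adult globins are limited by their few reads. Leaving out each library in turn gave log2 fold changes from -0.51 to 0.51 for hbae3, 0.50 to 1.39 for hbbe1.1, 0.26 to 1.23 for hbbe2, -1.72 to 0.077 for hbbe3, 0.52 to 0.62 for alas2, 0.78 to 0.96 for slc4a1a and 0.93 to 1.22 for cahz. For summed reads the ranges were 0.11 to 1.08 (all globins), -0.19 to 0.84 (α), 0.33 to 1.26 (β) and 0.83 to 0.99 (alas2, slc4a1a and cahz). Counts of genes called higher ranged from 0 to 5 for the members, 0 to 6 for the other globins and 5 to 24 for the lists, of which 9 to 18 were called lower. Over all genes the calls, higher and lower alike, also changed in these fits. They were fewest without mutant replicate 2 and most numerous without wild-type replicate 1. Such changes in calls are therefore not particular to the members, the other globins or the lists, and the part of the fit in them was not tested. The lone library of a group was assumed to vary like the other group.

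With library totals alone the log2 fold changes were 0.53 for hbae3, 1.48 for hbbe1.1, 1.22 for hbbe2, 1.11 for alas2, 1.12 for all globins and 1.33 for β globins. In that fit 5 members and 6 other globins were called higher and 8 list genes lower, against 29.0% and 12.8% of all genes. On log2(TPM + 1) the fold changes were 0.98, 1.93, 1.69, 1.55, 1.60 and 1.80 in the same order, with 0.15 for hbbe3 and 1.35 for α globins. There 6 members and 10 other globins were called higher and 2 list genes lower, against 35.2% and 5.87% of all genes. On log2(TPM + 0.1), with a median of all genes of 0.98, the fold changes were 0.98, 1.93, 1.69, 1.56, 1.60 and 1.80, with 0.17 for hbbe3 and 1.35 for α globins. Again 6 and 10 were called higher and 1 list gene lower, where 8768 of all 28079 genes were called higher and 1495 lower. Of all calls 44.0% were higher with TMM, 69.3% with library totals and 85.7% on log2(TPM + 1). The DESeq2 Wald test called 4 members, with hbbe1.1 at 0.94 and alas2 at 0.58, where it called 22.5% of all genes higher.

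Scaled to the globin reads, alas2 had a log2 fold change of -0.014, slc4a1a 0.27, cahz 0.49 and their sum 0.32, and 0 members, 0 other globins and 0 list genes were called higher and 9 list genes lower. All genes had a median of -0.54 in that fit, and 0.831% were called higher and 12.6% lower. In place of TPM, RPKM and CPM gave a mutant to wild-type ratio of the summed globin level of 1.95 and 2.17, against 3.04, and 2.51 and 2.73 for alas2, slc4a1a and cahz, against 3.88. Per 100 of hbbe1.1, hbae3 stood at 30.3 in the mutants and 58.7 in wild type with CPM, and at 22.7 and 44.2 with TPM from uniquely mapped reads, against 20.1 and 39.0. The cause of these shifts was not tested, beyond the scaling itself.

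The labels pair no samples, and the correlation of same-numbered deviations was -0.109, so the replicate block says only how calls move. The sum of alas2, slc4a1a and cahz stayed at 0.91 but lost its call (edgeR adjusted p = 0.0785). With that block 11 list genes were called lower, as were 6136 of all 28079 genes. The crossed pairing called 5 members higher (hbbe1.1 0.94, hbbe2 0.70 and alas2 0.57 were added), with β globins at 0.78, and 5744 of all genes higher and 7191 lower, against 5380 and 6835 without a block. A filter of 1 CPM in 2 libraries removed hbbe3, and the fit without globin reads gives no globin values. Of the 12 other globins, 2 were called higher with whole-gene reads or a filter of 1 CPM in 2 libraries, and 4 with the DESeq2 Wald test or the crossed pairing, against 3. Over all genes, 5405 of 28162 were called higher with whole-gene reads and 5592 of 25205 with that filter. In the remaining alternatives the fold changes of the members and of the sums kept direction and call.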

Other observations

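Of the reads assigned to hbbe2, 11.3% lay outside the annotated exon although the files give exon and gene the same length, and the share was 11.2% and 11.6% in the mutants, against 12.5% and 10.3% in wild type. In the 6 other abundant globin genes the share did not exceed 0.531% in any library. Counting whole-gene reads left the log2 fold change of hbbe2 at 0.66 (edgeR adjusted p = 0.192). For hbbe3, 19 of 58 and 26 of 40 reads lay outside the exon in the mutants, against 16 of 48 and 12 of 41 in wild type, and its log2 fold change with whole-gene reads was -0.26 (edgeR adjusted p = 0.792). The cause was not tested.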
